A study of Macaca mulatta with 2 samples.

Results

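The genes *TYROBP* (DAP12, ENSMMUG00000008004), *FCER1G* (FcRγ, ENSMMUG00000004512) and *HCST* (DAP10, ENSMMUG00000019758) encode small signaling adaptors, and their 3 rows were taken by symbol from the 35432 gene rows of 1 single-cell data set. The cells were circulating CD4+CD8+ double positive (DP) T cells of 1 untreated rhesus monkey aged 6 years. They were drawn from fresh peripheral blood mononuclear cells by magnetic beads, with CD4 beads first and CD8 beads on the CD4+ fraction. The cells gave an RNA library and, from antibodies to CD4 and CD8 that carry DNA tags (feature barcodes, FB), a second library of surface protein. All cells therefore share 1 animal, 1 purification and 1 pair of libraries, and there is no replicate for a test.

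These adaptors have hardly any extracellular part and sit in the membrane beside receptors that cannot signal by themselves. TYROBP and FCER1G carry an immunoreceptor tyrosine-based activation motif (ITAM), which recruits the kinases SYK and ZAP70 once its tyrosines are phosphorylated. HCST carries a tyrosine-x-x-methionine motif instead, which engages phosphatidylinositol 3-kinase and GRB2. TYROBP serves activating receptors of NK and myeloid cells, FCER1G serves Fc receptors and natural cytotoxicity receptors, and HCST is the partner of NKG2D in NK and cytotoxic T cells. Conventional T cells use the ITAMs of the CD3 and CD247 chains of their antigen receptor.

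The signaling motifs are shown because they are what sets the 3 adaptors apart. The coding sequences came from the RefSeq annotation of Mmul_10, the build of the deposited data. Capitals mark the codons of the tyrosines and of the leucines (methionine in *HCST*), and letters run 5′ to 3′ along the gene's strand.
*TYROBP*: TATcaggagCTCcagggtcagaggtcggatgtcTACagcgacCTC
*FCER1G*: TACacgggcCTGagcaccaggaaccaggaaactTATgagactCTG
*HCST*: TACatcaacATG

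Both ITAMs were 45 bases long with 10 codons between the tyrosine codons, and both were cut by an exon junction after their first 6 bases. The *TYROBP* motif lay at chr19:35322684-35322689 and chr19:35319723-35319761 on the minus strand, within a gene at chr19:35319528-35323792 with 5 coding exons. The *FCER1G* motif lay at chr1:89731533-89731538 and chr1:89731349-89731387 on the minus strand, within a gene at chr1:89731037-89734869 that also had 5 coding exons. The *HCST* motif lay at chr19:35319256-35319267 on the plus strand, in the coding sequence of a gene at chr19:35315049-35319397 with 4 coding exons. *HCST* and *TYROBP* were neighbours that ran toward each other, with 130 bases between their annotated ends.

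Levels are unique molecular identifiers (UMIs, which count captured RNA molecules) summed over the cells of a group and given per 1000000 gene UMIs (CPM). After the study's stated cell filter 7601 of 7923 barcodes were kept, and no barcode was repeated. A T cell was a kept cell with at least 1 UMI of *CD3E*, and 7311 cells met this, with quartiles of 3001 and 4720 UMIs. Beside *CD3E*, the other 5 genes of a T cell marker list were found in these cells. T cells were divided by at least 1 UMI of 5 gating genes, in a fixed order so that no cell was counted in more than 1 gate. *TRAV10* is the α variable segment of the invariant receptor of human NKT cells, *ZBTB16* encodes PLZF, the transcription factor of innate-like T cells, *EOMES* encodes a T-box factor of effector and memory cells, *CX3CR1* marks circulating cytotoxic effector cells, and *CCR7* encodes the lymph node homing receptor of naive and central memory cells. CD3-negative cells with UMIs of the B cell genes *MS4A1* or *CD79B* (86 B gene cells) served for comparison. Of markers that their rule did not use, *CD79A* and *CD22* were found in them and *CD247*, *CD2* and *CD5* were at 0. Square brackets hold exact 95% intervals (Poisson for CPM, Clopper-Pearson for shares of cells, binomial split for log2 ratios). These intervals cover counting error only, not the difference between animals. Those for CPM and ratios treat the UMIs of a cell as independent, so they do not cover the spread between cells.

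*TYROBP* was concentrated in the *TRAV10*+ gate. Its level there was 661 CPM [614, 711] in 247 cells, from 732 UMIs. In *ZBTB16*+ *TRAV10*- cells it was 168 CPM [140, 199] in 147 cells, and in the 35 *EOMES*+ *CX3CR1*+ cells it was 180 CPM [126, 249]. Those intervals overlapped. The *EOMES*+ *CX3CR1*- gate followed with 122 CPM [103, 143] in 302 cells, the *CX3CR1*+ *EOMES*- gate with 92.6 CPM [84.1, 102] in 1194 cells, and the 3538 T cells with none of the 5 genes with 81.5 CPM [76.7, 86.5]. The *CCR7*+ gate was lowest, at 45.3 CPM [41.0, 50.02] in 1848 cells. In this order, neighbours from the *TRAV10*+ gate to the next, and from the ungated cells to the *CCR7*+ gate, were separated beyond counting error, and so were the *EOMES*+ *CX3CR1*- and *CX3CR1*+ *EOMES*- gates. By share of cells with a *TYROBP* UMI, however, the *EOMES*+ *CX3CR1*- and *CX3CR1*+ *EOMES*- gates were alike, at 18.9% [14.6, 23.75] and 19.8% [17.5, 22.1]. In the *EOMES*+ *CX3CR1*- gate 6 of the 302 cells had 6 or more UMIs. The 36 UMIs of the *EOMES*+ *CX3CR1*+ gate were in 9 cells, with 12 of them in 1 cell. The *ZBTB16*+ *TRAV10*- and *EOMES*+ *CX3CR1*- gates, and the *CX3CR1*+ *EOMES*- and ungated cells, had overlapping intervals.

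**Figure D1:**
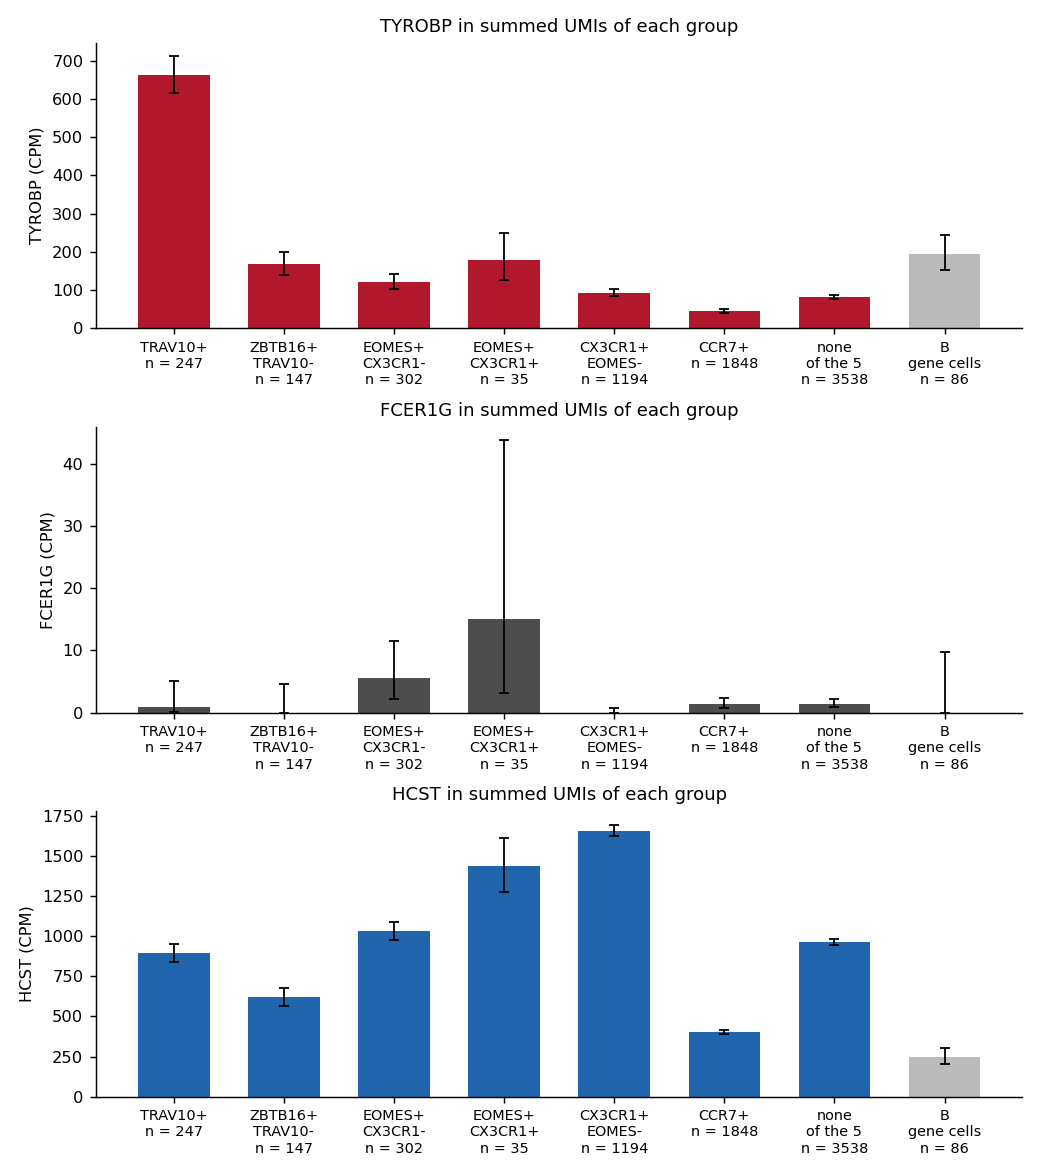
Level of each adaptor gene in CPM (y axes, linear, different scales) in the 7 T cell gates and the B gene cells (x axes, with n cells), summed over the cells of each group. Error bars are exact 95% Poisson intervals. *TYROBP* is highest in the *TRAV10*+ gate (661 CPM), *HCST* in the *CX3CR1*+ *EOMES*- gate (1657 CPM), and *FCER1G* is near 0 in all gates.

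Over the *CCR7*+ gate the log2 ratio of *TYROBP* was 3.87 [3.69, 4.05] in the *TRAV10*+ gate, 1.89 [1.59, 2.17] in *ZBTB16*+ *TRAV10*- cells and 1.42 [1.15, 1.70] in *EOMES*+ *CX3CR1*- cells. It was 1.99 [1.45, 2.48] in *EOMES*+ *CX3CR1*+ cells and 1.03 [0.83, 1.23] in *CX3CR1*+ *EOMES*- cells. All of these share the *CCR7*+ cells as reference. *TRAV10*+ cells also exceeded *ZBTB16*+ *TRAV10*- cells, by 1.98 [1.71, 2.26] on the log2 scale. A gene was called 2-fold higher or lower on CPM + 10 where both groups together held at least 20 of its UMIs. In the *TRAV10*+ gate 1.36% of 9718 genes were called higher, and *TYROBP* had the 5th highest ratio and *HCST* the 94th. In *ZBTB16*+ *TRAV10*- cells *TYROBP* was 12th of 9664 genes, of which 0.486% were called higher.

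The share of cells with a *TYROBP* UMI was 63.2% [56.8, 69.2] in the *TRAV10*+ gate, at a median of 3837 UMIs per cell. In the B gene cells, at a median of 4072 UMIs, it was 31.4% [21.8, 42.3], and their level was 194 CPM [152, 244]. Only the *TRAV10*+ gate lay above this share. The other gates ranged from 10.7% in *CCR7*+ cells to 31.3% in *ZBTB16*+ *TRAV10*- cells, so in them the share of cells with a UMI was not above that of B gene cells. With every cell thinned to 2000 UMIs the shares were 57.4% in *TRAV10*+ cells, 22.2% in *ZBTB16*+ *TRAV10*- cells, 6.404% in *CCR7*+ cells and 24.7% in B gene cells. The plasmacytoid dendritic cell list (*CLEC4C*, *IL3RA*, *TCF4* and *IRF8*) was at 330 CPM in B gene cells, and its part in their *TYROBP* level was not tested. Only 3 of these 4 genes were in the files under these symbols, so either *CLEC4C* or *IL3RA* was not measured. Whichever was in the files had 0 UMIs in B gene cells, in T cells and in the other CD3-negative cells. Here and below this list therefore counts *TCF4* and *IRF8* alone, which does not by itself identify plasmacytoid dendritic cells.

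Few cells carried most of the *TYROBP* RNA. *TRAV10*+ cells were 3.38% of T cells and held 24.7% of their *TYROBP* UMIs, but 3.64% of their *HCST* UMIs. The 412 T cells with at least 3 *TYROBP* UMIs, 5.64% of all, held 65.7% of them. Of the 104 T cells with 6 or more, 57 were *TRAV10*+, 23 were in none of the gates and 11 were *CCR7*+, and the highest cell had 17. Within the *TRAV10*+ gate 91 cells had no *TYROBP* UMI, 20 had 1, 23 had 2, 56 had 3 to 5 and 57 had 6 or more.

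**Figure D2:**
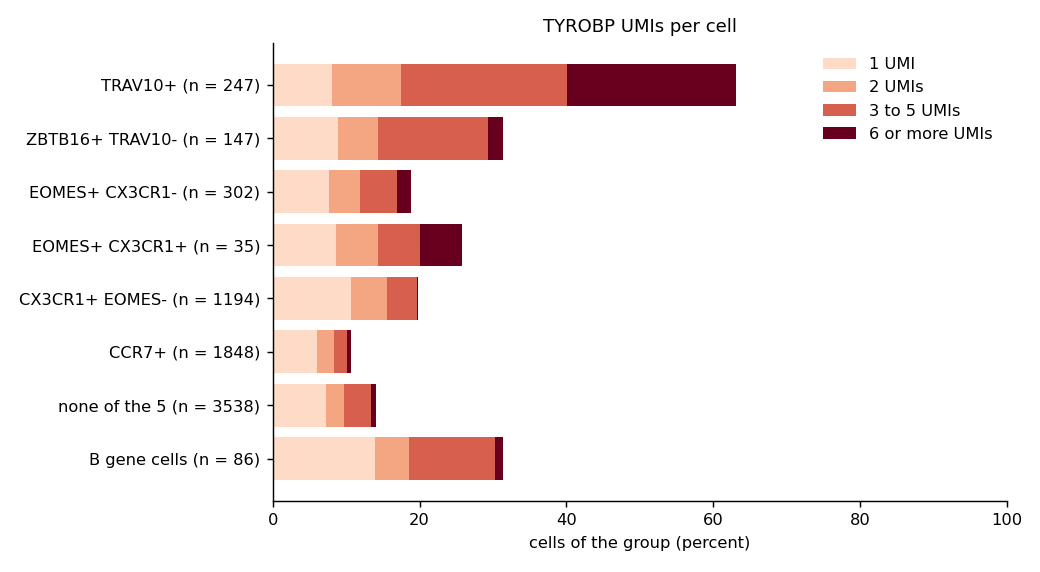
Share of cells (x axis, percent) with 1, 2, 3 to 5, or 6 or more *TYROBP* UMIs in each T cell gate and in the B gene cells (y axis, with n cells). The bars are stacked, so that the full length is the share with any UMI. In the *TRAV10*+ gate 57 of 247 cells have 6 or more UMIs.

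The *TRAV10*+ cells differed among themselves in *TYROBP*. The splits that follow were chosen after values had been seen. Cells with no *ZBTB16* UMI had 522 CPM [472, 576], those with 1 had 1044 CPM [923, 1175] and the 19 with at least 2 had 736 CPM [567, 940]. Cells with any exceeded those with none by 0.89 [0.67, 1.101] on the log2 scale, but the level did not climb with more *ZBTB16* UMIs. The level was 334 CPM [265, 415] in cells with 1 *TRAV10* UMI, 609 CPM [515, 715] with 2 and 810 CPM [741, 884] with 3 or more. *KLRB1* encodes CD161, a lectin-like receptor of innate-like T cells. The 152 cells with a *KLRB1* UMI had *TYROBP* at 895 CPM and 81.6% of them had a UMI of it, against 265.5 CPM and 33.7% in the 95 cells without. *HCST* differed less in the same split, at 987 CPM and 733 CPM. Cells that carried *ZBTB16* or *KLRB1* were thus the ones higher in *TYROBP*.

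*TYROBP* in *TRAV10*+ cells also varied with the β segment. In the 53 cells with a *TRBV7-2* UMI it was 974 CPM [858, 1100], with a UMI in 92.5% of cells and a median of 5 UMIs per cell. In the 54 cells with another named β segment and no *TRBV7-2* it was 199 CPM [152, 256], with a UMI in 40.7% of cells and a median of 0. In the 140 cells with no named β segment it was 772 CPM [699, 850]. *TRBV7-2* was found in 21.5% of *TRAV10*+ cells and in 2.62% of other T cells. The 185 *TRBV7-2* cells outside the gate had 83.2 CPM [65.7, 104], so among *TRBV7-2* cells *TYROBP* was high in those that also had *TRAV10*. The 194 *TRAV10*+ cells with no *TRBV7-2* UMI were high too, at 564 CPM [514, 617]. *HCST* was 815 CPM [709, 931] with *TRBV7-2* and 917 CPM [854, 984] without it in the *TRAV10*+ gate, and these intervals overlapped.

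**Figure D3:**
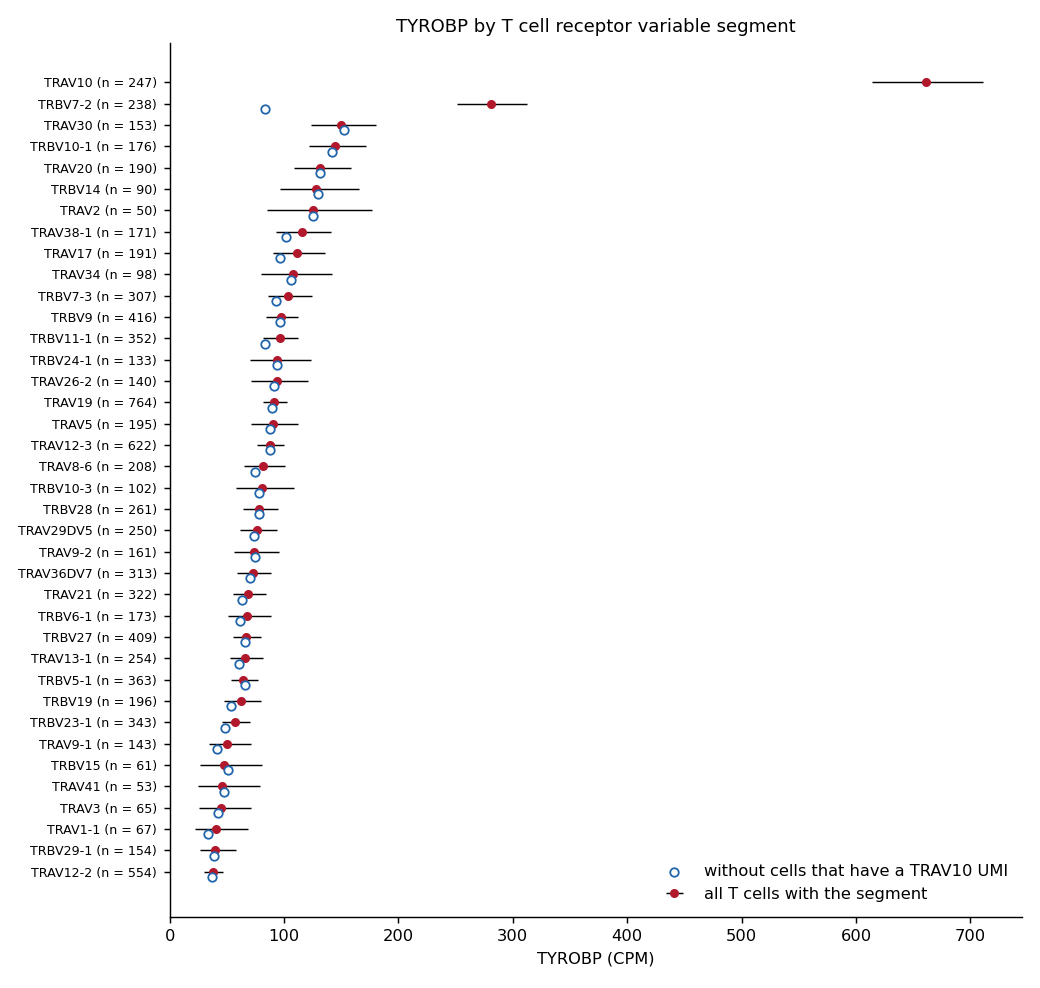
*TYROBP* level (CPM, x axis) over T cells with a UMI of each named antigen receptor V segment that at least 50 T cells carry (y axis, with n cells). Filled points have exact 95% Poisson intervals and open circles leave out cells with a *TRAV10* UMI. *TRAV10* (661 CPM) stands apart, followed by *TRBV7-2* (281 CPM, 83.2 CPM without *TRAV10*+ cells). A cell may count under several segments.

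Of 38 V segments with at least 50 T cells, *TRAV10* had the highest *TYROBP* level. *TRBV7-2* followed with 281 CPM, *TRAV30* with 150 CPM [123.5, 180.5] and *TRBV10-1* with 145 CPM [122, 171]. *TRAV12-2* was lowest at 37.8 CPM over 554 cells, although its *HCST* level of 1200 CPM was the third highest. *TRBV10-1* and *TRAV30* cells had 224.5 CPM [166, 298] in 38 cells and 202 CPM [136, 288] in 30 cells of the *CX3CR1*+ *EOMES*- gate. These cells also counted in the ranking, so the values are no separate evidence. In the *CCR7*+ gate *TRAV30* cells had 49.8 CPM [25.7, 86.9]. *TRBV10-1* cells had 129.7 CPM [89.8, 181] there, with 17 of their 34 UMIs in 1 cell. Ungated *TRBV10-1* and *TRAV30* cells had 137 CPM [99.5, 185] and 194 CPM [145, 253]. The 13 *TRBV10-1* cells in the *EOMES*+ *CX3CR1*- gate had 0 *TYROBP* UMIs, which allows up to 40.95 CPM at 3 counts.

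Within the *TRAV10*+ gate, the 113 cells with at least 3 *TYROBP* UMIs were set against the 91 with none. Their median depths were 3952 and 3598 UMIs. *HCST* did not differ beyond counting error, at a log2 ratio of 0.07 [-0.14, 0.28], nor did *TRAV10* itself, at 0.02 [-0.19, 0.23]. The rise of *TYROBP* with *TRAV10* UMIs given above was thus not seen in this split. *KLRB1* was higher by 2.38 [1.98, 2.80], *ZBTB16* by 1.99 [1.05, 3.07] and *KLRD1*, which encodes the CD94 partner of the NKG2 receptors, by 2.86, from 24.0 to 174 CPM. Of 11 innate-like and cytotoxic genes with enough UMIs, 4 were called higher (*KLRB1*, *KLRG1*, *IL2RB* and *TBX21*) and 2 lower (*CCL5* and *GZMK*), where 1.8% of 4342 genes were called higher and 1.52% lower. By cells the *GZMK* split went the other way, since *TYROBP* was 819 CPM [729, 918] in the 79 *TRAV10*+ cells with a *GZMK* UMI and 584 CPM [530, 642] in the 168 without. *KLRG1*, an inhibitory receptor of effector cells, was 213 CPM against 40.03 CPM, and *CCL5*, a chemokine of cytotoxic cells, was 65.2 CPM against 272 CPM. Of 15 kinases and adaptors, *MAP3K8* (log2 ratio 3.48) and *FYN* (1.14) were called higher.

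The same split looked different elsewhere. In *CX3CR1*+ *EOMES*- cells, *KLRB1* was the only 1 of 12 innate-like and cytotoxic genes called higher, from 174 to 386 CPM, and 0 of 17 kinases and adaptors were, where 0.622% of 8198 genes were called higher and 2.79% lower. *HCST* had a log2 ratio of -0.04 [-0.20, 0.11] there. In T cells with none of the 5 gating genes, 0 of 14 innate-like and cytotoxic genes and 3 of 21 kinases and adaptors were called higher, beside 0.541% of 9989 genes called higher and 0.21% lower. Those were *SYK*, *LYN* and *LAT2*, kinases and an adaptor of B and myeloid cells, which were at 2.05, 4.01 and 1.96 CPM in cells without *TYROBP* and at 23.0 CPM each in the others. *KLRB1* was not called there but was higher by 0.91 [0.70, 1.12] on the log2 scale, at 296 against 158 CPM. *HCST* was higher by 0.27 [0.16, 0.37]. In these ungated cells, 9.80% of cells with at least 3 *TYROBP* UMIs had a UMI of the 5 B cell markers, against 5.23% of those with none. In *TRAV10*+ cells the shares were 3.54% and 9.89%. The plasmacytoid dendritic cell list shifted more in the ungated cells, at 5.23% against 0.43% of cells and 119.4 against 1.69 CPM. Monocyte markers were in 7.19% against 3.26% of them. In *TRAV10*+ cells the plasmacytoid dendritic cell list was in 0.885% against 1.099% of cells. The part of such UMIs in the *SYK*, *LYN* and *LAT2* levels was not tested. The differences between gates were not tested.

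UMIs of other lineages moved with *TYROBP* most in the *CCR7*+ gate. There 35.6% of cells with at least 3 *TYROBP* UMIs had a B cell marker UMI and 26.7% a plasmacytoid dendritic cell marker UMI, against 10.5% and 0.606% of cells with none. The median depths were 6357 and 4279 UMIs, and the part of depth or doublets in these shares was not tested. Without the 769 T cells that carried any UMI of the B cell, monocyte or plasmacytoid dendritic cell lists, *TYROBP* was 36.8 CPM in *CCR7*+ cells and 713.5 CPM in *TRAV10*+ cells. The *TRAV10*+ level was thus as high without such cells.

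Among *ZBTB16*+ *TRAV10*- cells, *TYROBP* was 142 CPM [115, 173] with 1 *ZBTB16* UMI and 346 CPM [241, 482] in the 20 cells with at least 2. In the *EOMES*+ *CX3CR1*- gate it was lower with *GZMK*, the granzyme of memory cytotoxic cells, and higher with *KLRF1*, the receptor NKp80 of NK cells. Cells with *GZMK* had 88.0 CPM in 245 cells and those without had 253 CPM in 57, a log2 ratio of -1.52 [-2.00, -1.04]. By share of cells with a *TYROBP* UMI the intervals overlapped, at 16.3% [11.9, 21.6] and 29.8% [18.4, 43.4]. Of the 65 UMIs in cells without *GZMK*, 16 were in 1 deep cell of 14474 UMIs. Cells with *KLRF1* had 219 CPM in 65 cells and those without had 86.5 CPM in 237, a log2 ratio of 1.34 [0.86, 1.82]. The same deep cell counted among those with *KLRF1*. The shares of cells with a *TYROBP* UMI were 33.85% [22.57, 46.65] with *KLRF1* and 14.77% [10.51, 19.94] without it. *HCST* in the same gate was 1090 CPM with *GZMK* and 790 CPM without it, the opposite order. Neither split held across gates. With and without *GZMK*, *TYROBP* was 129 CPM [115, 144] and 71.2 CPM [66.3, 76.4] in ungated cells, and 93.5 CPM [74.9, 115] and 92.3 CPM [82.9, 103] in *CX3CR1*+ *EOMES*- cells. With and without *KLRF1* it was 803 CPM [710, 904] and 599 CPM [546, 657] in *TRAV10*+ cells, 126 CPM [113, 141] and 70.9 CPM [66.0, 76.1] in ungated cells, but 81.9 CPM [70.4, 94.9] and 102 CPM [89.7, 115] in *CX3CR1*+ *EOMES*- cells.

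*HCST* followed another order of gates. It was highest in *CX3CR1*+ *EOMES*- cells, at 1657 CPM [1621, 1695], and then in *EOMES*+ *CX3CR1*+ cells, at 1434 CPM [1273, 1610]. *EOMES*+ *CX3CR1*- cells had 1029 CPM [974, 1087], ungated cells 963 CPM [946, 979] and *TRAV10*+ cells 893 CPM [838, 950]. *ZBTB16*+ *TRAV10*- cells had 620 CPM [567, 677] and *CCR7*+ cells 403 CPM [390, 416]. The *CX3CR1*+ *EOMES*- gate stood above the next beyond counting error, the *ZBTB16*+ and *CCR7*+ gates stood below the others, and the intervals of ungated cells overlapped narrowly with those of the gates on either side. B gene cells had 250 CPM [202, 306], and *CCR7*+ cells exceeded them by 0.69 [0.39, 0.998] on the log2 scale.

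A *HCST* UMI was found in 96.7% of *CX3CR1*+ *EOMES*- cells, 91.5% of *TRAV10*+ cells and 70.8% of *CCR7*+ cells, at medians of 3394, 3837 and 4324 UMIs. In the B gene cells the share was 47.7%, at a median of 4072 UMIs. Thinned to 2000 UMIs the shares were 94.4%, 78.9%, 49.4% and 35.1%, and the order of these 4 groups stayed. Over *CCR7*+ cells, the log2 ratio of *HCST* was 2.04 [1.98, 2.10] in *CX3CR1*+ *EOMES*- cells and 1.15 [1.05, 1.25] in *TRAV10*+ cells. There 3.68% of 10222 genes were called higher in the *CX3CR1*+ *EOMES*- gate, and *HCST* was 61st and *TYROBP* 506th. Between these gates the adaptors went opposite ways. *TRAV10*+ over *CX3CR1*+ *EOMES*- cells gave 2.84 [2.66, 3.01] for *TYROBP* and -0.89 for *HCST*.

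*HCST* also was higher with more *GZMB*, the granzyme of cytotoxic granules, inside gates that did not use it, a split also chosen after values had been seen. In ungated T cells *HCST* was 525 CPM with no *GZMB* UMI, 1134 CPM with 1 or 2 and 1644 CPM with at least 3. The *CCR7*+ gate had 352, 583 and 987 CPM in the same order, and the *CX3CR1*+ *EOMES*- gate had 924, 1248 and 1698 CPM. The 75 *CCR7*+ cells with at least 3 *GZMB* UMIs had a median of 7689 UMIs, against 4288 in those with none, and the part of depth or doublets in their levels was not tested. *TYROBP* in ungated cells was 65.6, 90.3 and 106 CPM, with a log2 ratio of 0.69 [0.51, 0.87] between the ends. It was 41.1 [36.8, 45.9], 52.3 [31.9, 80.7] and 98.7 CPM [74.5, 128] in *CCR7*+ cells and 16.7 [2.02, 60.2], 60.1 [32.0, 103] and 96.3 CPM [87.3, 106] in *CX3CR1*+ *EOMES*- cells, so it too was higher with more *GZMB*.

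Of T cells with a *TYROBP* UMI, 93.3% also had *HCST*, where 84.2% of all T cells had it. After thinning, the share with *TYROBP* was 8.22% in T cells with no *HCST* UMI, 10.5% with 1 and 14.2% with at least 2. Within *TRAV10*+ cells it was 50%, 58.8% and 59.7%, and within *CCR7*+ cells 5.99%, 6.31% and 7.58%. In those gates the intervals overlapped, so that a link between the adaptors was not detectable there at this depth. In ungated cells it was 7.85% [6.11, 9.90] with no *HCST* UMI and 12.3% [10.8, 13.9] with at least 2, which did not overlap. In *CX3CR1*+ *EOMES*- cells the shares were 6.25% [1.73, 15.2] and 13.7% [11.5, 16.1].

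*FCER1G* was almost absent from T cells. All 7311 held 42 UMIs in 11 cells, or 1.39 CPM. The *TRAV10*+ gate had 1 UMI, the *ZBTB16*+ *TRAV10*- and *CX3CR1*+ *EOMES*- gates had 0, the *EOMES*+ *CX3CR1*- gate had 7 in 1 cell and the *EOMES*+ *CX3CR1*+ gate had 3 in 1 cell. The *CCR7*+ gate had 12 UMIs in 3 cells and the ungated cells had 19 in 5. All 19 were in cells with at least 3 *GZMB* UMIs, as were 10 of the 12. Of these UMIs, 9, 4 and 7 were in 3 cells that had 41, 32 and 54 UMIs of the plasmacytoid dendritic cell list. The part of such cells in the *GZMB* overlap was not tested. B gene cells had 0 UMIs. The ratio of the *TRAV10*+ gate over the *CCR7*+ gate was -0.60 [-6.02, 2.16] on the log2 scale, which leaves the direction undetermined at this depth. *EOMES*+ *CX3CR1*- over *CCR7*+ cells gave 2.03 [0.44, 3.49], and this rested on the 1 cell.

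By contrast the 70 CD3-negative cells without *MS4A1* or *CD79B* had 101 *FCER1G* UMIs, or 693 CPM [565, 842], with a UMI in 14 cells. The median depth of the 70 cells was 967 UMIs, and the 14 cells had 1582 to 14401. Over all kept cells, 26 held the 148 *FCER1G* UMIs, and 23 of them had *TYROBP* and 23 had *HCST*. The cells fell into different kinds by the other genes they carried. In 8 CD3-negative cells with monocyte marker UMIs, *FCER1G* had 6 to 13 UMIs (median 10.5) and *TYROBP* 3 to 16 (median 12), with *LYZ* in 8 cells and *CD14* in 5. Of these 8, 2 had 33 and 26 UMIs of the plasmacytoid dendritic cell list beside 4 and 2 of the monocyte list. In 6 CD3-negative cells without those markers *FCER1G* was lower, at 1 to 6 UMIs, *TYROBP* was 0 to 14 and *HCST* 1 to 14. Of these 6, *KLRB1* and an NK cell marker were each found in 5, and 5 exceeded the CD8 tag threshold. The sixth had 21 UMIs of the plasmacytoid dendritic cell list and no *TYROBP*. The NK cell list held *NCAM1*, *NCR1*, *KLRF1*, *FCGR3* and *GNLY*, and *GNLY* was not in the files under this symbol. A UMI of this list was also in 45.3% of *CX3CR1*+ *EOMES*- T cells with no *TYROBP* UMI, so it does not by itself identify NK cells.

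The T cells with *FCER1G* were also mixed. In 7 without monocyte markers *FCER1G* had 1 to 7 UMIs and *TYROBP* 0 to 17 (median 10), with *KLRB1* in 6, an NK cell marker in 6 and the CD8 tag above its threshold in 7. The CD4 tag was above its threshold in 5 of these cells. Those below it, with CD4 tags of 50 and 115 UMIs, had 1 *CD3E* UMI each and none of *CD3D*. In 4 with monocyte markers *FCER1G* had 2 to 9 UMIs, and these cells were deep, at 7689 to 15223 UMIs. They had 1 to 9 UMIs of the monocyte list and none of *CD14*, and 3 of them had 32, 41 and 54 UMIs of the plasmacytoid dendritic cell list. The remaining cell had no *CD3E* UMI but 1 of *CD3D*, with 6 of *MS4A1*. Without T cells carrying B cell, monocyte or plasmacytoid dendritic cell markers, *FCER1G* was 0.503 CPM over T cells, and the 1570 *CCR7*+ cells left had 0 UMIs.

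**Figure D4:**
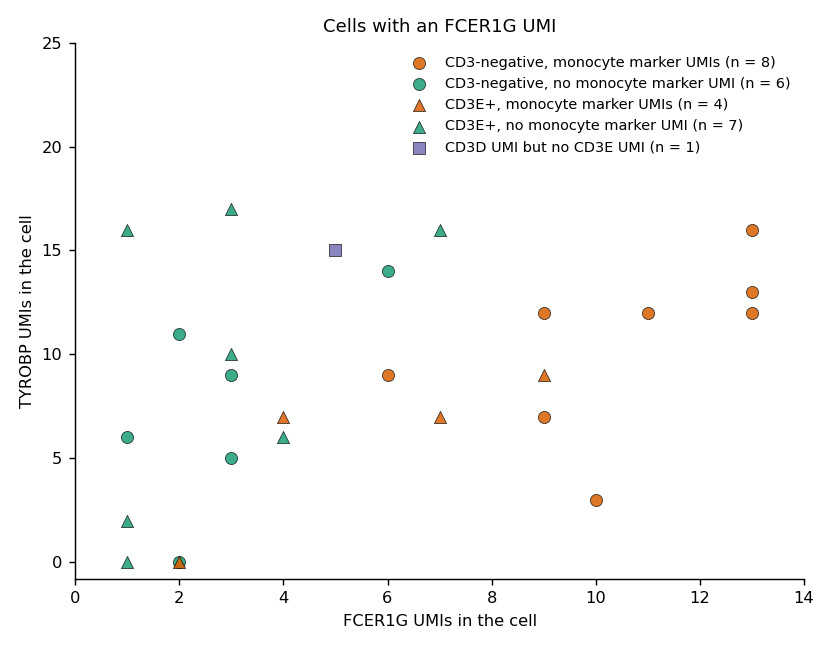
*FCER1G* (x axis) and *TYROBP* UMIs (y axis) in each of the 26 cells with an *FCER1G* UMI, by the kind of cell (colour and shape). Cells with monocyte marker UMIs reach 13 *FCER1G* UMIs, and T cells without them reach 7.

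The CD3-negative cells without B cell genes showed how the adaptors divided outside the T cells. In 11 cells with monocyte markers, among them the 2 with more of the plasmacytoid dendritic cell list, *TYROBP* was 1344 CPM [1072, 1664], *FCER1G* 1344 CPM [1072, 1664] and *HCST* 352 CPM [221, 533]. In 6 cells with NK cell markers and no monocyte marker *TYROBP* was 2653 CPM [1987, 3470], *FCER1G* 751 CPM [420, 1238] and *HCST* 2252 CPM [1643, 3014]. *HCST* and *TYROBP* thus were both higher in the cells with NK cell markers beyond counting error, and *FCER1G* was not separated. Of the 22 *HCST* UMIs in the cells with monocyte markers, 11 were in 1 cell. That cell was 1 of the 2 with more of the plasmacytoid dendritic cell list. The other 53 cells were shallow, with a median of 827 UMIs, and held 1, 2 and 11 UMIs of *TYROBP*, *FCER1G* and *HCST*.

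A tag was taken as above background where it was beyond the 90th percentile seen among B gene cells, 186.5 UMIs for CD4 and 302 for CD8. By this measure 3910 T cells had both tags, 2982 had CD4 only, 183 had CD8 only and 236 had neither. *TYROBP* was 103 CPM [98.5, 108] with both tags, 81.9 CPM [76.6, 87.5] with CD4 only, 252 CPM [213, 295] with CD8 only and 108 CPM [82.8, 137] with neither. *HCST* was 846, 962, 1324 and 1068 CPM in the same order. Both were highest in the CD8-only cells.

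**Figure D5:**
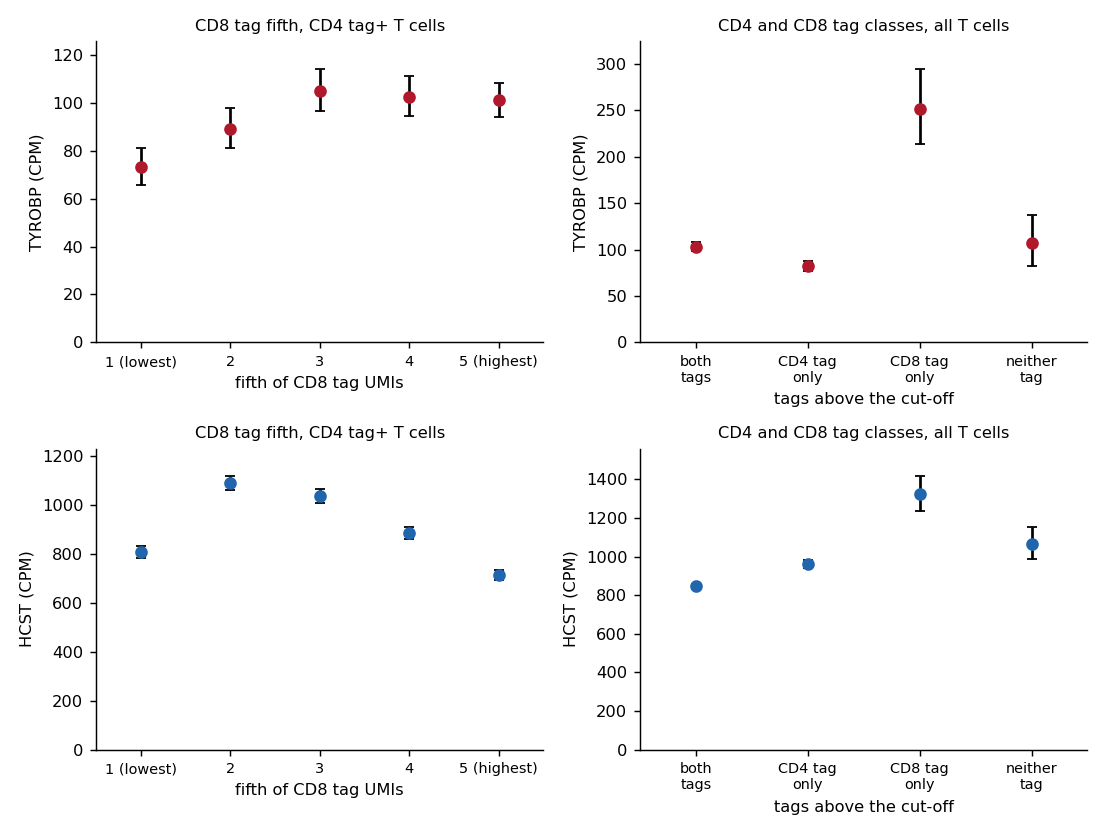
Levels of *TYROBP* and *HCST* (CPM, y axes) over quintiles of the CD8 tag among T cells above the CD4 threshold (left) and in 4 groups of T cells by both tags (right), with exact 95% Poisson intervals. CD8-only cells (n = 183) are highest for both genes, at 252 CPM and 1324 CPM.

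CD8-only cells exceeded cells with both tags by 1.29 [1.04, 1.53] on the log2 scale for *TYROBP*. The *FCER1G* ratio was 2.41 [0.68, 3.80], from 5 UMIs in 2 cells and 28 UMIs in 8 cells. The shares of cells with an *FCER1G* UMI overlapped, at 1.09% [0.13, 3.89] and 0.20% [0.09, 0.40]. The 153 *TYROBP* UMIs of the CD8-only cells were unevenly placed. The 9 *ZBTB16*+ *TRAV10*- cells held 31, the 25 *EOMES*+ *CX3CR1*- cells 32, the 92 ungated cells 72 and the 22 *CCR7*+ cells 0. Only 2 of them were *TRAV10*+, with 4 UMIs.

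Among T cells above the CD4 threshold, those above the CD8 threshold had more *TYROBP*, with a log2 ratio of 0.33 [0.22, 0.45], and less *HCST*, with -0.19 [-0.22, -0.15]. *FCER1G* gave 0.90 [-0.23, 2.17], from 28 and 9 UMIs. The median depths were 4018 and 3450 UMIs. Within gates the *TYROBP* ratio was 0.40 [0.14, 0.67] in *TRAV10*+, 0.71 [0.14, 1.30] in *EOMES*+ *CX3CR1*- and 0.50 [0.17, 0.83] in *CCR7*+ cells. It was 0.14 [-0.16, 0.44] in *CX3CR1*+ *EOMES*- cells, 0.05 [-0.67, 0.82] in *ZBTB16*+ *TRAV10*- cells and -0.15 [-0.33, 0.04] in ungated cells, so that it did not hold in every gate. In the *EOMES*+ *CX3CR1*- gate 16 of the 77 *TYROBP* UMIs above the threshold were in 1 deep cell of 14474 UMIs. The shares of cells with a *TYROBP* UMI there were 25.2% [17.8, 33.8] above the threshold and 11.3% [6.74, 17.5] below it. After thinning these shares were 12.3% [7.05, 19.5] and 8.45% [4.44, 14.3], and the intervals overlapped. In *EOMES*+ *CX3CR1*+ cells all 36 *TYROBP* UMIs lay in 9 of the 26 cells above the threshold, with 12 in 1 cell. The 9 cells not above it had 0, which allows up to 76.4 CPM at 3 counts. The shares of cells with a *TYROBP* UMI overlapped, at 34.6% [17.2, 55.7] and 0% [0, 33.6]. The *HCST* ratio was -0.26 in *CX3CR1*+ *EOMES*- and -0.19 in ungated cells but 0.17 in *CCR7*+ cells.

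Over quintiles of the CD8 tag among cells above the CD4 threshold, *TYROBP* was 73.2, 89.1, 105, 103 and 101 CPM from lowest to highest. *HCST* was 810, 1091, 1037, 886 and 715 CPM, highest in the second quintile. Over quintiles of the CD4 tag in all T cells *HCST* fell from 1359 through 1111, 832 and 734 to 707 CPM. *TYROBP* stayed between 93.2 and 106 CPM. By CPM the CD4 tag thus separated the *HCST* levels and not those of *TYROBP*. The median depth rose from 3047 to 5179 UMIs from the lowest to the highest quintile. Their shares of cells with a *HCST* UMI were 86.04% and 86.65%, and 83.75% and 67.15% after thinning. The median CD4 tag was 308 UMIs in *CX3CR1*+ *EOMES*- cells and 432.5 in *CCR7*+ cells. The part of depth or of the gates in the *HCST* levels was not tested.

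The adaptors' partners and the proteins below them were taken from lists made with knowledge of earlier results. Of 15 genes listed for receptors of TYROBP, 7 were in the files under these symbols and only *KLRD1* had enough UMIs. *TREM1*, *TREM2*, *CLEC5A*, *NCR2*, *CD300LB* and *CD300E* had 0 UMIs in all gates. *KLRC2*, *KLRC3*, *NKG2C*, *KIR2DS4*, *KIR3DS05*, *KIR3DS1*, *SIRPB1* and *SIGLEC14* were not in the files under these symbols. Whether those receptors were expressed was therefore not measured. *KLRD1* encodes CD94, the partner of the NKG2 receptors, so its level does not show that a receptor using TYROBP was present. *KLRD1* was 111 CPM in *TRAV10*+, 48.8 CPM in *ZBTB16*+ *TRAV10*-, 110.5 CPM in *EOMES*+ *CX3CR1*-, 255 CPM in *EOMES*+ *CX3CR1*+ and 178 CPM in *CX3CR1*+ *EOMES*- cells, against 10.0 CPM in *CCR7*+ cells. It was called higher in all 5. *NKG2D*, the receptor that uses HCST, was the one gene of 2 found for it and was also called higher in all 5 gates, most in *CX3CR1*+ *EOMES*- cells at 132 CPM against 10.0 CPM. Of 13 receptor genes for FCER1G, 11 were in the files and *NCR3*, which encodes NKp30, had enough UMIs. It was called higher in the *TRAV10*+ (54.2 CPM), *ZBTB16*+ *TRAV10*- (23.8 CPM) and *CX3CR1*+ *EOMES*- gates (40.3 CPM) against 4.90 CPM in *CCR7*+ cells. *FCER1G* itself had 1 UMI or none in those 3 gates.

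Of the 4 ITAM chains of the T cell receptor (*CD3E*, which defined the T cells, *CD3D*, *CD3G* and *CD247*), 0 were called in any gate. Of 21 kinases and adaptors with enough UMIs, 2 were called higher in *TRAV10*+ cells, *MAP3K8* (67.8 against 10.25 CPM) and *PIK3R1* (129 against 58.4 CPM). The numbers were 0, 3, 4 and 4 in the *ZBTB16*+ *TRAV10*-, *EOMES*+ *CX3CR1*-, *EOMES*+ *CX3CR1*+ and *CX3CR1*+ *EOMES*- gates, where 0.486%, 1.46%, 4.75% and 3.68% of genes were called higher. *MAP3K8*, *PIK3R1* and *SH2D1A* were the 3, *LAT2* joined them in *EOMES*+ *CX3CR1*+ cells and *LCK*, the proximal kinase of the T cell receptor, in *CX3CR1*+ *EOMES*- cells. None of the listed genes was called lower in any gate, beside 0.669%, 0.207%, 0.501%, 3.06% and 1.43% of genes in the 5 gates in the order above. The median log2 ratio of these 21 was 0.22 in *TRAV10*+ cells, beside 0.06 over all genes tested.

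Most of the innate-like and cytotoxic list was called higher in every gate. In *TRAV10*+ cells 11 of 12 genes were called higher, among them *KLRB1* (539 against 31.7 CPM), *KLRG1* (135 against 8.77 CPM), *GZMB* (907 against 117 CPM) and *KLRF1* (96.7 against 5.81 CPM). The counts were 9 of 12 in *ZBTB16*+ *TRAV10*-, 10 of 13 in *EOMES*+ *CX3CR1*-, 10 of 12 in *EOMES*+ *CX3CR1*+ and 10 of 12 in *CX3CR1*+ *EOMES*- cells. Of all genes tested, 1.36%, 0.486%, 1.46%, 4.75% and 3.68% were called higher in the 5 gates in this order, with *TRAV10*+ first. In *EOMES*+ *CX3CR1*- cells *GZMK* led (1722 against 133 CPM). The median log2 ratio was 2.29 in *TRAV10*+, 1.54 in *ZBTB16*+ *TRAV10*- and 2.69 in *CX3CR1*+ *EOMES*- cells, beside 0.06, 0.04 and 0.14 over all genes tested.

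Across the 7 gates, the genes whose log2(CPM + 10) was most like that of *TYROBP* by Pearson correlation, of 7062 candidates, were *PDZD8* (0.97), *CEBPD* (0.96), *LMF1* (0.96), *RBM23* (0.95) and *TBC1D14* (0.94). Most were low and changed little. *PDZD8* went from 20.6 CPM in *CCR7*+ to 45.2 CPM in *TRAV10*+ cells, and *CEBPD*, a transcription factor gene of myeloid and stimulated cells, from 4.56 to 54.2 CPM. Those for *HCST* were *HMGN4*, *CLEC2D*, *TMEM50A*, *CCDC12* and *B2M*. *CLEC2D*, the ligand gene of CD161, went from 120 CPM in *CCR7*+ to 309.5 CPM in *CX3CR1*+ *EOMES*- cells, and *B2M*, the light chain of MHC class I, from 7283 to 12370 CPM. For *FCER1G* they were *AGFG1*, *USP11*, *ZNF304*, *NAB1* and *UBP1*, and these rest on 42 UMIs in 11 cells. The 7 gates are unequal parts of 1 library, so that these correlations only describe it.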

How the data were processed

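The deposited matrix holds raw, unscaled UMI counts. The labels name Cell Ranger 3.1.0, STAR 2.5.1b, Seurat 3.1.3 and the Mmul_10 genome, with no role or order. Per the study's methods, Cell Ranger and STAR made the counts on Mmul_10, and Seurat was used later. The annotation release was not given in the sources used here. The stated filter was applied, with genes in at least 3 cells, 200 to 4000 genes per cell and a mitochondrial share of no more than 20%. Counting 2 unnamed features as mitochondrial left 7601 cells (7876 with the named genes alone), a choice made with the resulting number of cells in view. Doublets were not removed. Gates were set in the order *TRAV10*, *ZBTB16*, then *EOMES* and *CX3CR1*, then *CCR7*. A marker is any UMI of a list, and for the plasmacytoid dendritic cell list only *TCF4* and *IRF8* gave UMIs.

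The members, gates and lists were chosen with earlier results of these data known. From each list at most 4 genes a gate were named by ratio, where the higher group had 20 UMIs or more, and for each member the 5 genes most like it with at least 200 UMIs. *TBX21*, *GZMK*, *SYK*, *LYN* and *LAT2*, in the split by *TYROBP* UMIs, *MAP3K8*, *SH2D1A* and *LAT2* in the *EOMES*+ *CX3CR1*+ gate and *NCR3* in the *ZBTB16*+ gate fell outside the rule.

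Thinning to 2000 UMIs left out 495 shallower cells and kept 7106. With 1 animal no p-value was computed. A count of 0 was replaced by 3 counts over the group for a bound. Alternatives were other gate, tag, filter and pseudocount settings, Scrublet scores (highest 5% left out) and a mean over cells. Scripts ran in Python 3.11.15 (pandas 2.3.3, scipy 1.17.1, numpy 2.4.6, matplotlib 3.10.9, scanpy 1.11.5).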

Additional observations from a re-analysis of the deposited data

Results flagged for a closer look

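The 322 barcodes left out by the cell filter also held adaptor RNA, a signal in data that the comparisons did not use. Their *TYROBP* level was 65.9 CPM, from 85 UMIs in 34 barcodes, and their *HCST* level was 507 CPM, from 654 UMIs in 160 barcodes. The 14 barcodes with over 4000 genes had *TYROBP* at 95.4 CPM [66.5, 133] and the 275 over the mitochondrial limit had 56.1 CPM [41.6, 74.0]. The 33 barcodes under 200 genes had 0 *TYROBP* UMIs. *FCER1G* had 1 UMI in all of them.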

How the results depend on the processing

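Of 192 ratios of the adaptors recomputed under other settings, 145 stayed within the counting interval of the reported value, 47 moved outside it, and 0 of the ratios whose interval leaves out 0 changed sign. *FCER1G* in *TRAV10*+ over *CCR7*+ cells (log2 -0.60), whose interval spans 0, changed sign to 0.49 as a mean over cells, 0.67 with at least 2 *CD3E* UMIs and 0.18 without the deepest cells. A further 13 settings and 2 results gave no value, because both groups had at most 3 *FCER1G* counts or a bound left the direction undetermined. For *TYROBP* in *TRAV10*+ over *CCR7*+ cells (log2 3.87) the values that moved were 3.56 with gates not exclusive, 4.22 as a mean over cells, 4.09 thinned, and, chosen after seeing the data, 4.28 without cells carrying other lineages' markers and 4.28 without the deepest 5% of cells. For *HCST* there they were 0.92 not exclusive, 1.27 without high Scrublet scores, 1.28 thinned and 1.25 without the deepest cells. For *HCST* in *CX3CR1*+ *EOMES*- cells they were 1.79, 2.23, 2.13 and 2.17 in the same order, and 2.13 as a mean over cells. In *EOMES*+ *CX3CR1*- cells *TYROBP* moved to 1.72 and *FCER1G* to 4.64 with at least 2 UMIs of a gating gene, and to 1.75 and at least 3.97 without other lineages' markers. In *EOMES*+ *CX3CR1*+ cells *TYROBP* moved to 2.55 thinned and 2.496 without those markers. The *TYROBP* ratio by CD8 tag moved to 0.21 at a 95th percentile threshold. The *TYROBP* ratio in *ZBTB16*+ *TRAV10*- cells ranged from 1.58 to 2.99.

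The share of genes called 2-fold in either direction depended on the pseudocount. With the 10 CPM used it was 2.03%, 0.693%, 1.96%, 7.81% and 5.11% in the 5 gates in the order that follows. With 1 CPM it was 8.94% in *TRAV10*+, 7.39% in *ZBTB16*+ *TRAV10*-, 8.94% in *EOMES*+ *CX3CR1*-, 31.0% in *EOMES*+ *CX3CR1*+ and 15.4% in *CX3CR1*+ *EOMES*- cells. With 50 CPM it was 0.391%, 0.135%, 0.379%, 1.11% and 1.53%. With no minimum of UMIs it was 1.32% in *TRAV10*+, 1.28% in *EOMES*+ *CX3CR1*- and 3.36% in *CX3CR1*+ *EOMES*- cells. No paired analysis was possible because the data are 1 sample. Depth limits *FCER1G* most, since single cells decide its ratios in T cells.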

Other observations

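*HCST* varied over the V segments of the T cells, in another order than *TYROBP*. It was highest with *TRBV7-3*, at 1583 CPM, followed by *TRAV19* at 1224 CPM and *TRAV12-2* at 1200 CPM, and lowest with *TRBV15*, at 445 CPM [372, 528] in 61 cells. *TRBV15* cells included 0% *CX3CR1*+ *EOMES*- cells, the gate with the highest *HCST* level.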
